A study of Mus musculus with 8 samples.

Results

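The genes described here are those whose transcripts were high in both libraries of B16F10 cells labelled as overexpressing cyclophilin D (CypD OE) and lower in all other libraries of the series. Both are called OE-labelled libraries in the text. B16F10 is a mouse melanoma cell line, and CypD, encoded by *Ppif*, is a mitochondrial matrix enzyme that regulates the mitochondrial permeability transition pore. Genes were chosen by their TPM values. A gene was a member when the lower of its values in the 2 libraries labelled CypD OE was at least 3 TPM (the relative abundance of a gene's transcripts in a library) and at least 1.7 times the highest of its values in the other 6 libraries. Of the 55414 genes in the table, 60 met this rule, and 6 of these were left out because their symbols mark predicted genes or small RNAs, which left 54 members, all of them protein-coding. The same rule applied to the other groups chose 7 genes for WT, 559 for CypD KO and 33 for Control. Because these values chose the members, the difference between the libraries labelled CypD OE and the others is given as a description, without a test.

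WT cells and CypD KO cells, in which *Ppif* had been disrupted by CRISPR/Cas9 and clones selected in puromycin, were kept at 21% O2. Control cells carried empty pcDNA and the cells labelled CypD OE carried pcDNA encoding CypD. Both were stable lines selected with G418 and were kept at 1% O2. All cells were harvested after 24 h, and each of the 4 groups had 2 libraries of total RNA depleted of ribosomal RNA. Oxygen, vector and drug selection differ together between WT and Control, and a stable line or clone can differ from its parent in ways unrelated to CypD, so that these causes cannot be told apart. Whether the 2 libraries of a group came from separate cultures is not stated in the labels, so the p-values measure only the spread between these libraries, which may be technical.

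The members share no single pathway by definition, but several have well-known roles. Hyaluronan and proteoglycans form a hydrated matrix around cells, which link proteins stabilize and which ADAM and ADAMTS metalloproteases cut. Melanocytes arise from the neural crest, and melanoma cells keep parts of its programme, among them ERBB3, the receptor for neuregulins, ETS factors of the PEA3 group, which act downstream of ERK signaling, and the MADS-box factor MEF2C. The cystine transporter encoded by *Slc7a11* supplies cysteine for glutathione and is a target of both NRF2, the factor of the oxidative stress response, and ATF4, that of the integrated stress response.

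Each library was covered by approximately 25700000 to 30000000 fragments on genes, as estimated from the steps between low values, and the libraries labelled CypD OE were the deepest. A level of 3 TPM on a transcript of 3000 bases corresponded to 92.3 to 110.4 fragments, and intervals from such counts would cover counting error only. Melanocyte markers were abundant in all libraries. Their summed level over 8 genes was 13775 to 13953 TPM in the libraries labelled CypD OE, 20827 to 21385 in Control, 15935 to 16040 in WT and 12789 to 12958 in CypD KO. Single markers had other orders. *Tyr* was highest in CypD KO, at 167 and 147 TPM against 37.4 and 41.3 in WT. *Sox10* was highest in the libraries labelled CypD OE, at 269 and 274 TPM. *Mlana* was at 2034 and 2067 TPM there and 1981 and 2023 in Control. By contrast, all 8 lymphocyte, all 8 keratinocyte and epithelial and all 8 adipocyte markers were below 1 TPM in all 8 libraries. The fibroblast markers summed to 10.04 to 11.6 TPM in the libraries labelled CypD OE, 21.7 to 24.3 in Control, 17.3 to 19.9 in WT and 75.3 to 75.7 in CypD KO, with 4 of 8 markers below 1 TPM in all libraries and *Dcn* and *Dpt* at 0. Most of the CypD KO sum was *Col1a1* (38.5 and 41.1 TPM) and *Postn* (34.8 and 31.2 TPM). *Col1a2* went the other way, at 1.09 and 2.17 TPM in CypD KO and 9.03 and 6.87 TPM in WT. The Schwann cell and neural markers summed to 60.4 to 61.7 TPM in the libraries labelled CypD OE, 84.2 to 85.3 in Control, 91.8 to 96.6 in WT and 120.8 to 127 in CypD KO, with *Sox2* at 0. The macrophage markers summed to 1.15 to 1.98 TPM in the libraries labelled CypD OE and 24.2 to 25.3 in CypD KO, with 3.67 to 4.9 in the others, and 6 of the 8 were below 1 TPM in all libraries. Most of the CypD KO sum was *Cd68*, at 21.85 and 23.3 TPM. The endothelial and muscle markers summed to 6.14 TPM or less. The part of these markers in the members' levels was not tested. No marker gene was a member. In bulk RNA, fewer cells of a type and less RNA per cell cannot be told apart.

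Only part of the labels could be checked from the transcripts. *Ppif* was measured at 50.7 and 49.99 TPM in WT, 10.4 and 12.1 in CypD KO, 44.6 and 42.3 in Control and 50.3 and 49.3 in OE-labelled libraries. Its level in the libraries labelled CypD OE was thus close to that in WT, and each direction below rests on the library label. A list of 32 hypoxia-responsive genes summed to 1072 and 1083 TPM in WT, 3364 and 3259 in CypD KO, 3850.2 and 3925 in Control and 999 and 1003 in OE-labelled libraries. Although Control and CypD OE cells were both labelled as kept at 1% O2, the summed level of this list was therefore high in Control and CypD KO and low in WT and the libraries labelled CypD OE. Of the 30 genes of this list that were tested, 29 were lower in the libraries labelled CypD OE than in Control, and 0 of the 32 were members. Its part in the members' levels was not tested.

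Across the 54 members, the lower CypD OE value was 1.704 to 15.7 times the highest other value, with a median of 1.97, and this ratio was at least 2 for 25 members and at least 3 for 4. The mean level in the OE-labelled libraries had a median of 19.8 TPM over the members, against 8.17 TPM in WT, 4.47 TPM in CypD KO and 5.87 TPM in Control. It was above 10 TPM for 33 members and above 100 TPM for *Hapln1*, *Mef2c*, *Mest* and *Clvs1*. The 2 libraries labelled CypD OE differed by a median factor of 1.06 and at most by 1.37 (*Nrep*). The highest of the other libraries was a WT library for 30 members, a CypD KO library for 19 and a Control library for 5, and the lowest group mean was that of Control for 26, CypD KO for 24 and WT for 4. The contrast was thus smallest against WT, with a median ratio of means of 2.37, and was larger against CypD KO (3.18) and Control (3.29). Just inside the threshold were *Tcf7l1*, *Kank4*, *Plcb4*, *Slc6a15* and *Nrep*, with ratios from 1.73 to 1.704, and just outside were *Hoxa11* and *Fndc3c1* (both just under 1.7), *Col15a1* (1.69), *Cfap100* (1.68) and *Cyb5a* (1.68), so the boundary separates genes of nearly equal ratio.

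**Figure D1:**
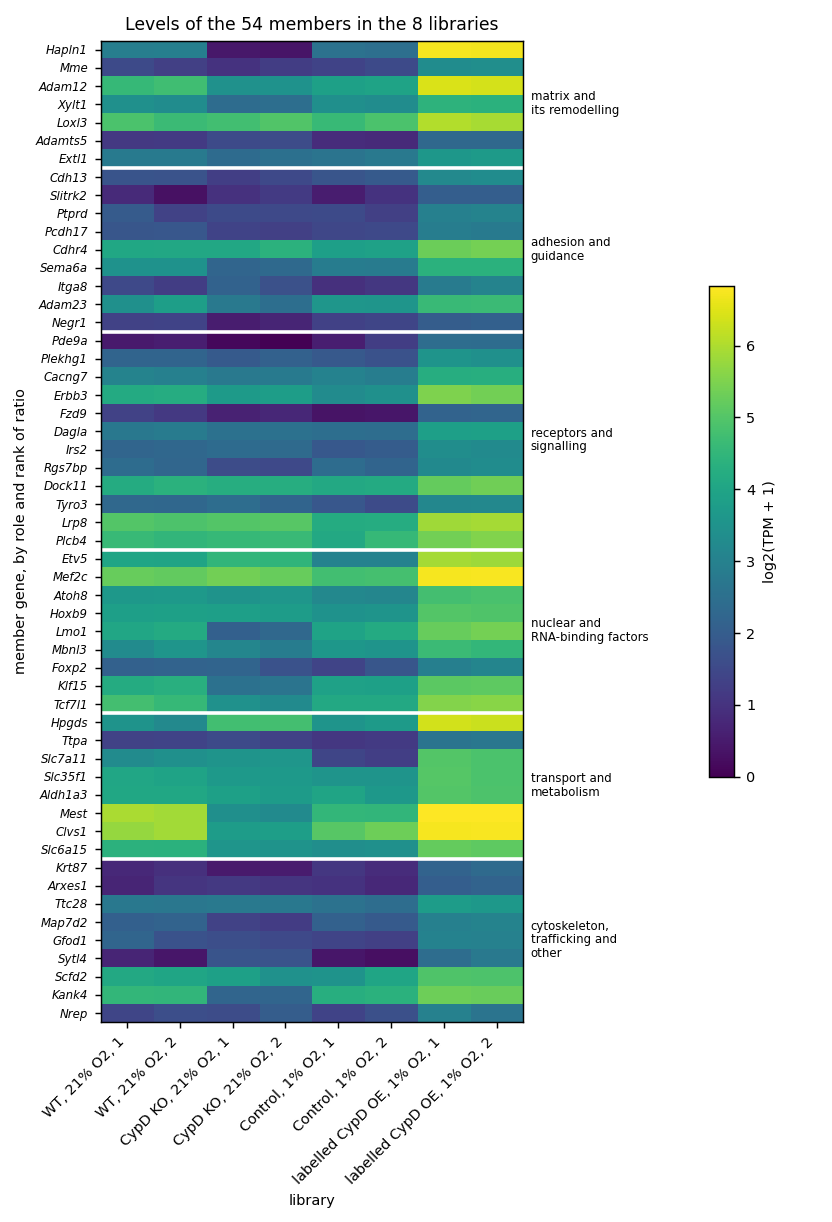
Levels of the 54 members, as log2(TPM + 1) by colour, in the 8 libraries (columns, 2 per group) with genes (rows) ordered by role and then by ratio. The last 2 columns, labelled CypD OE, are the brightest in each row by construction, and *Hapln1*, *Mef2c*, *Mest* and *Clvs1* exceed 100 TPM there.

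The 7 members grouped by role under the extracellular matrix and its remodelling included the 3 with the largest ratios. *Mme*, 1 of these 3, is in this group although it encodes a peptidase of small peptides. *Hapln1* (ENSMUSG00000021613; chromosome 13, 89686581 to 89759950, plus strand of GRCm39) encodes the link protein that fastens proteoglycans to hyaluronan, and its level was 6.56 and 6.64 TPM in WT, 0.36 and 0.3 in CypD KO, 4.9 and 4.6 in Control and 106 and 104 in OE-labelled libraries. The OE-labelled libraries were 15.9 times WT and 22.1 times Control, and CypD KO was the lowest group. No other link protein gene followed it, since *Hapln2*, *Hapln3* and *Hapln4* were below 0.5 TPM in all libraries, and the hyaluronan-binding proteoglycan genes *Vcan*, *Acan* and *Ncan* were below 1 TPM in all of them. *Bcan*, another gene of that proteoglycan family, was at 5.9 and 5.58 TPM in WT, 2.26 and 2.83 in CypD KO, 3.94 and 4.76 in Control and 8.63 and 8.59 in OE-labelled libraries. It had the same order of groups as *Hapln1*, with a log2 fold change over Control of 0.85 (SE 0.13, limma adjusted p of 0.00271). *Cd44*, the main hyaluronan receptor, was at 211 and 216 TPM in WT, 343 and 342 in CypD KO, 229.9 and 232 in Control and 220.2 and 219 in OE-labelled libraries, and thus highest in CypD KO. These relatives were looked up after the values had been seen.

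*Mme* (ENSMUSG00000027820; chromosome 3, 63148889 to 63293451, plus strand) encodes neprilysin, a membrane peptidase that cleaves small peptides. It was measured at 1.91 and 1.46 TPM in WT, 0.99 and 1.38 in CypD KO, 1.61 and 1.89 in Control and 8.92 and 9.41 in OE-labelled libraries. The 6 other libraries lay within a narrow range below 2 TPM. *Adam12* (ENSMUSG00000054555; chromosome 7, 133484928 to 133833875, minus strand), a metalloprotease and disintegrin, was measured at 22.6 and 25.6 TPM in WT, 9.99 and 10.3 in CypD KO, 13.6 and 14.5 in Control and 85.6 and 82.9 in OE-labelled libraries. WT was above Control, and Control above CypD KO. Among other *Adam* genes, *Adam9* was more abundant and also highest in the OE-labelled libraries, at 144 and 144 TPM in WT, 150.1 and 149 in CypD KO, 179.8 and 183 in Control and 246 and 238 in OE-labelled libraries. *Adam10*, at 73.7 to 147 TPM, and *Adam15*, at 16.9 to 38.4 TPM, were highest in CypD KO, and *Adam17*, at 38.9 to 57.2 TPM, in Control. *Adam19* was at 4.41 TPM or less. *Adamts5*, an aggrecan-cleaving protease, reached 3.91 and 3.94 TPM against 0.84 and 0.76 TPM in Control, and was next highest in CypD KO at 1.87 and 2.03 TPM.

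*Loxl3*, an enzyme that crosslinks collagen and elastin, was measured at 28.8 and 24.02 TPM in WT, 25.9 and 30.2 in CypD KO, 23.5 and 28.9 in Control and 64.4 and 60.4 in OE-labelled libraries. The 3 other groups overlapped. Its relative *Loxl2* was at 0.7 and 0.59 TPM in WT, 11.6 and 12.3 in CypD KO, 29.3 and 31.3 in Control and 0.52 and 0.34 in OE-labelled libraries. The pair thus had opposite orders in Control and the OE-labelled libraries. *Loxl3* shares its locus with *Htra2* on the opposite strand, which was itself abundant (85.7 to 133 TPM), and whether counting used strand is not given in the sources used here. *Xylt1*, which starts glycosaminoglycan chains on proteoglycans, was at 9.77 and 9 TPM in WT, 4.36 and 4.52 in CypD KO, 9.49 and 8.91 in Control and 20.5 and 19.6 in OE-labelled libraries. *Extl1*, a glycosyltransferase of heparan sulfate synthesis, reached 11.2 and 12.1 TPM, 1.94 times WT.

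**Figure D2:**
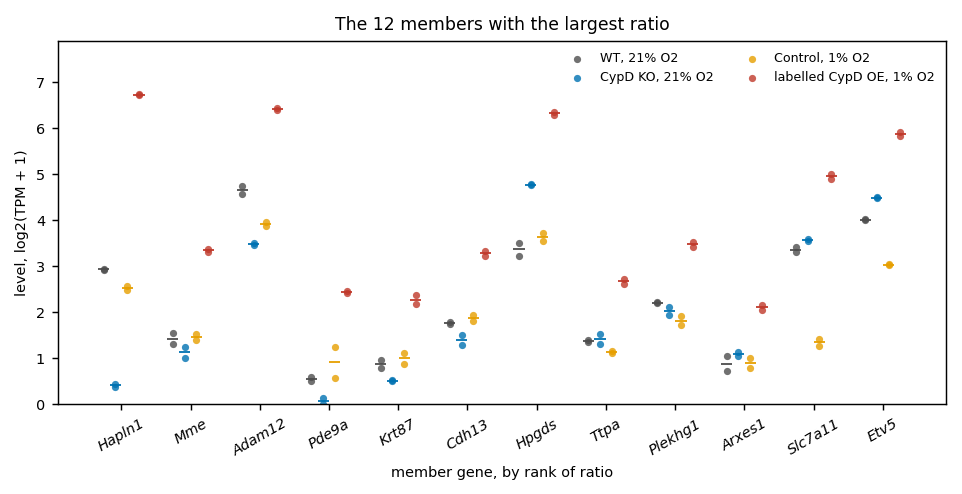
Levels, as log2(TPM + 1), of the 12 members with the largest ratio, in rank order, with a point for each library, a short line for the mean of the group's 2 points and colours for the 4 groups. *Hapln1* stands furthest above the other groups, and the order of WT, CypD KO and Control below the OE-labelled libraries differs from gene to gene.

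A group of 9 members act in cell adhesion and guidance, many of them best known from neurons. *Cdh13* (ENSMUSG00000031841; chromosome 8, 119010328 to 120051660, plus strand), T-cadherin, which is anchored by lipid rather than by a membrane-spanning segment, was measured at 2.43 and 2.36 TPM in WT, 1.42 and 1.82 in CypD KO, 2.49 and 2.81 in Control and 8.29 and 9.07 in OE-labelled libraries. Its 6 other values ranged from 1.42 to 2.81 TPM, with CypD KO at the lower end. *Pcdh17*, a protocadherin, reached 6.43 and 5.87 TPM, and of the 7 other tested genes of a protocadherin list 1 was higher and 2 were lower in the OE-labelled libraries than in Control. *Ptprd*, a receptor tyrosine phosphatase of synaptic contacts, and *Slitrk2*, a transmembrane protein of the same contacts, reached 6.79 and 7.35 TPM and 3.14 and 3.11 TPM, and *Slitrk2* had only 0.24 to 1.22 TPM elsewhere.

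*Sema6a*, a membrane-bound semaphorin that steers axons, was measured at 10.2 and 10.3 TPM in WT, 3.64 and 4 in CypD KO, 6.36 and 6.14 in Control and 19.6 and 19.4 in OE-labelled libraries. WT lay above Control, and Control above CypD KO, without overlap. *Adam23*, an ADAM protein without protease activity that serves as an adhesion receptor, was at 9.71 and 13.2 TPM in WT, 5.78 and 4.56 in CypD KO, 10.9 and 10.7 in Control and 23.6 and 24.2 in OE-labelled libraries, with CypD KO lowest and WT and Control overlapping. *Itga8*, an integrin alpha chain, had its second highest level in CypD KO (3.41 and 2.23 TPM) and reached 6.17 and 7.32 TPM. *Cdhr4*, a cadherin-related gene, was at 15.7 and 16.2 TPM in WT, 15.9 and 19.9 in CypD KO, 13.4 and 14.1 in Control and 38.1 and 41.5 in OE-labelled libraries. The 2 predicted genes on the same strand within its span were also highest in the OE-labelled libraries, and reads could have been divided among them. *Negr1*, an immunoglobulin-type adhesion protein of neurites, was just over the minimum at 3.02 and 3.3 TPM.

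Receptors and signaling proteins made up 12 members. *Erbb3* (ENSMUSG00000018166; chromosome 10, 128403392 to 128425811, minus strand), the neuregulin receptor, which pairs with other ERBB receptors because its own kinase is weak, was measured at 17.1 and 17.6 TPM in WT, 12.2 and 12.8 in CypD KO, 8.83 and 9.73 in Control and 44.2 and 40.7 in OE-labelled libraries. The OE-labelled libraries were 2.44 times WT and 4.58 times Control. Its partner *Erbb2* was at 3.17 and 3.37 TPM in WT, 3.59 and 3.89 in CypD KO, 3.17 and 2.95 in Control and 5.59 and 5.63 in OE-labelled libraries, a log2 fold change over Control of 0.7 (SE 0.11, limma adjusted p of 0.00289). *Egfr* was listed at 0 in all libraries and *Erbb4* was at 0.20 TPM or less. *Tyro3*, a receptor tyrosine kinase that binds protein S and GAS6, was at 3.99 and 3.83 TPM in WT, 4.38 and 3.6 in CypD KO, 2.59 and 1.93 in Control and 7.95 and 8.19 in OE-labelled libraries. Its relative *Axl* was at 8.22 and 6.42 TPM in WT, 45.03 and 41.98 in CypD KO, 3.69 and 6.74 in Control and 4.95 and 5.65 in OE-labelled libraries. *Axl* was thus highest in CypD KO and *Tyro3* in the OE-labelled libraries.

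*Lrp8*, the receptor for reelin and apolipoprotein E, was measured at 31.1 and 29.5 TPM in WT, 30.8 and 31.96 in CypD KO, 17.5 and 17.7 in Control and 56.7 and 59.1 in OE-labelled libraries, with Control below WT and CypD KO. *Fzd9*, a Wnt receptor, had low levels, 1.54 and 1.2 TPM in WT, 0.57 and 0.7 in CypD KO, 0.28 and 0.34 in Control and 3.5 and 3.71 in OE-labelled libraries. *Irs2*, an adaptor of insulin and IGF receptors, was at 3.71 and 3.88 TPM in WT, 4.27 and 4.1 in CypD KO, 2.68 and 2.97 in Control and 9.23 and 8.66 in OE-labelled libraries. For its relative *Irs1*, at 3.26 and 3.9 TPM in WT, 5.68 and 5.74 in CypD KO, 3.41 and 3.37 in Control and 5.82 and 5.9 in OE-labelled libraries, CypD KO and the OE-labelled libraries were nearly equal. Among enzymes that make or break second messengers, *Pde9a*, a cyclic GMP phosphodiesterase, was measured at 0.42 and 0.5 TPM in WT, 0.1 and 0 in CypD KO, 0.49 and 1.38 in Control and 4.47 and 4.35 in OE-labelled libraries. It was the only member listed at 0 in any library. *Plcb4*, a phospholipase C of G-protein signaling, was near the threshold, at 23.3 and 21.3 TPM in WT, 23 and 23.7 in CypD KO, 16.3 and 22.9 in Control and 40.7 and 45.3 in OE-labelled libraries. *Dagla*, which makes the endocannabinoid 2-arachidonoylglycerol, was at 5.68 and 6.13 TPM in WT, 4.81 and 4.79 in CypD KO, 4.56 and 4.41 in Control and 13.5 and 13.8 in OE-labelled libraries.

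*Plekhg1*, which encodes a protein with a pleckstrin homology domain, was measured at 3.63 and 3.57 TPM in WT, 2.84 and 3.34 in CypD KO, 2.76 and 2.29 in Control and 10.6 and 9.66 in OE-labelled libraries. *Dock11*, an exchange factor for CDC42, was at 17.4 and 19.5 TPM in WT, 18.1 and 18.2 in CypD KO, 16.3 and 16.9 in Control and 36 and 40 in OE-labelled libraries, with the other 6 libraries between 16.3 and 19.5 TPM. *Cacng7*, an auxiliary subunit of AMPA receptors and calcium channels, reached 18.1 and 18.6 TPM against 5.77 to 7.36 TPM elsewhere. *Rgs7bp*, which anchors regulators of G-protein signaling at the membrane, reached 8.37 and 8.9 TPM and was lowest in CypD KO, at 2.01 and 1.82 TPM.

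Transcription factors and RNA-binding proteins made up 9 members. *Etv5* (ENSMUSG00000013089; chromosome 16, 22200052 to 22259662, minus strand), an ETS factor of the PEA3 group, was measured at 15.3 and 15 TPM in WT, 21.6 and 21.3 in CypD KO, 7.11 and 7.22 in Control and 59.5 and 55.6 in OE-labelled libraries. All 4 groups were separate, with Control lowest, WT next and CypD KO above WT, and the OE-labelled libraries were 8.03 times Control. The related *Etv4* was at 2.65 and 3.82 TPM in WT, 7.48 and 10.4 in CypD KO, 0.3 and 1.38 in Control and 17.4 and 17.1 in OE-labelled libraries. *Etv1*, the other gene of the group, was at 9.47 and 9.65 TPM in WT, 12 and 11.9 in CypD KO, 7.2 and 6.68 in Control and 14.1 and 15.9 in OE-labelled libraries. *Etv4* is in a list of immediate early and ERK feedback genes, and its log2 fold change in the OE-labelled libraries over Control was 3.37 (SE 0.3, limma adjusted p of 0.000273).

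The feedback inhibitors of ERK signaling showed a similar order for some genes only. *Spry4* was at 3.6 and 3.64 TPM in WT, 5.66 and 5.66 in CypD KO, 2.31 and 1.7 in Control and 9.69 and 9.3 in OE-labelled libraries, with a log2 fold change over Control of 1.81 (SE 0.13, limma adjusted p of 9.77e-05). *Dusp6*, the ERK phosphatase, was at 62.05 and 68.2 TPM in WT, 93.1 and 98.8 in CypD KO, 51.7 and 54.5 in Control and 107 and 100.4 in OE-labelled libraries, a log2 fold change over Control of 0.95 (SE 0.06, limma adjusted p of 8.22e-05). *Spry2* was higher in the OE-labelled libraries than in Control, with a log2 fold change of 1.00 (SE 0.08, limma adjusted p of 0.000131), but was highest in CypD KO, at 38.0 and 41.3 TPM. Within the immediate early list as a whole, 12 of the 24 tested genes other than *Etv5* were higher and 7 were lower in the OE-labelled libraries than in Control. These feedback genes were looked up after the values had been seen, and the list itself was compiled with earlier results known.

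**Figure D3:**
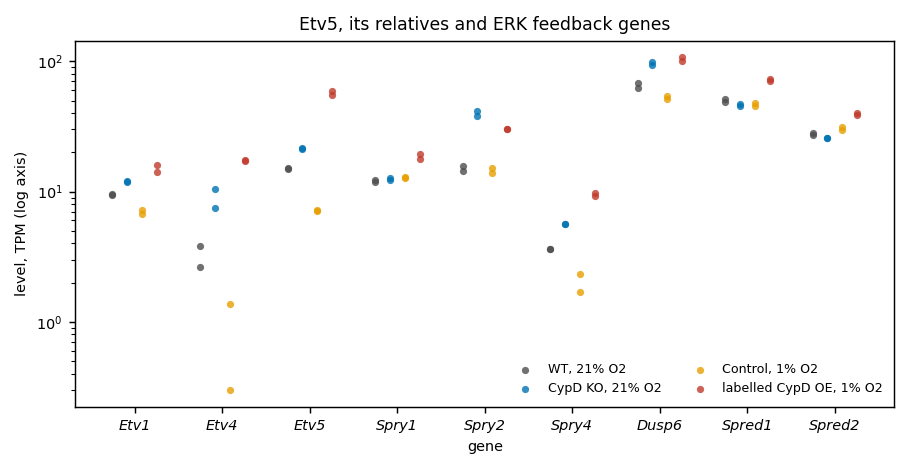
Levels in TPM, on a log axis, of *Etv1*, *Etv4*, *Etv5* and 6 genes of ERK feedback, with a point for each library and colours for the 4 groups. *Etv5* is highest in the OE-labelled libraries and lowest in Control, *Spry2* is highest in CypD KO, and *Spred2* differs less between groups.

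*Mef2c* (ENSMUSG00000005583; chromosome 13, 83652064 to 83815555, plus strand), a MADS-box factor of muscle, neural crest and lymphoid development, was measured at 37.1 and 35.3 TPM in WT, 40.8 and 36.5 in CypD KO, 26.3 and 27.2 in Control and 105 and 107 in OE-labelled libraries. The OE-labelled libraries were 2.93 times WT, and its relatives differed less between groups. *Mef2a* was at 39.2 and 42.1 TPM in WT, 52.03 and 49.2 in CypD KO, 39.2 and 38.4 in Control and 44.9 and 43.01 in OE-labelled libraries. *Mef2d* was at 57.9 and 62.1 TPM in WT, 78.2 and 74.3 in CypD KO, 65.1 and 56.9 in Control and 70.3 and 76.3 in OE-labelled libraries. *Hoxb9*, a homeobox factor of the trunk, was at 13.4 and 13.7 TPM in WT, 13.6 and 12.7 in CypD KO, 10.2 and 10.5 in Control and 30.8 and 29.99 in OE-labelled libraries. The other *Hoxb* genes looked up stayed below 10 TPM in all libraries. Among them *Hoxb3*, at 1.99 and 1.82 TPM in WT, 1.85 and 2.54 in CypD KO, 1.73 and 1.83 in Control and 3.31 and 3.56 in OE-labelled libraries, and *Hoxb4*, at 0.19 and 0.29 TPM in WT, 0.25 and 0.19 in CypD KO, 0.33 and 0.23 in Control and 0.74 and 0.93 in OE-labelled libraries, were also highest in the OE-labelled libraries, whereas *Hoxb13* was lowest there. *Atoh8*, a basic helix-loop-helix factor, was at 11.4 and 11.8 TPM in WT, 10.4 and 10.9 in CypD KO, 8.17 and 7.79 in Control and 26.8 and 28.4 in OE-labelled libraries, with Control lowest.

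*Lmo1*, a LIM-only cofactor of transcription, was measured at 15.5 and 17.2 TPM in WT, 3.26 and 3.92 in CypD KO, 14.6 and 16.9 in Control and 37.03 and 41.3 in OE-labelled libraries. CypD KO lay far below the other groups. *Klf15*, a zinc-finger factor of metabolism, was also lowest in CypD KO, at 17.2 and 18.8 TPM in WT, 4.84 and 5.22 in CypD KO, 13.9 and 13.6 in Control and 33.3 and 34.1 in OE-labelled libraries. *Tcf7l1*, a Wnt pathway factor that mainly represses, was at 26.8 and 22.8 TPM in WT, 9.89 and 8.65 in CypD KO, 16.3 and 16.4 in Control and 46.3 and 47.7 in OE-labelled libraries. WT was above Control and Control above CypD KO. Its relative *Tcf7l2* was at 23.4 and 20.1 TPM in WT, 17.9 and 17.8 in CypD KO, 21.5 and 22.9 in Control and 21.2 and 21.7 in OE-labelled libraries. *Mbnl3*, a splicing regulator, reached 24.1 and 22 TPM and its highest value in the other libraries was in Control, at 11.1 TPM. *Foxp2*, a forkhead factor, reached 6.78 and 7.61 TPM, and its other values of 1.64 to 3.56 TPM overlapped between groups.

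Transport and metabolism accounted for 8 members. *Slc7a11* (ENSMUSG00000027737; chromosome 3, 49846975 to 50398070, minus strand), the cystine and glutamate exchanger, was measured at 8.82 and 9.69 TPM in WT, 10.6 and 10.96 in CypD KO, 1.68 and 1.4 in Control and 31.04 and 28.8 in OE-labelled libraries. Control stood alone at the low end, and the OE-labelled libraries were 19.4 times Control but 3.23 times WT. Its partner in the membrane, *Slc3a2*, was at 158 and 163 TPM in WT, 162 and 156 in CypD KO, 123 and 148 in Control and 138 and 133 in OE-labelled libraries. Its log2 fold change over Control was 0.01 (SE 0.08, limma adjusted p of 0.939). *Slc6a15*, a transporter of neutral amino acids, was at 19.8 and 19.5 TPM in WT, 10.7 and 10.4 in CypD KO, 9.44 and 9.78 in Control and 35.8 and 33.8 in OE-labelled libraries. *Slc35f1*, of the nucleotide sugar transporter family, was at 15.3 and 14.6 TPM in WT, 12 and 11.8 in CypD KO, 10.6 and 10.5 in Control and 31.9 and 28.6 in OE-labelled libraries.

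*Hpgds* (ENSMUSG00000029919; chromosome 6, 65094001 to 65121983, minus strand), the hematopoietic prostaglandin D synthase, was measured at 10.3 and 8.35 TPM in WT, 26.2 and 26.4 in CypD KO, 10.6 and 12.2 in Control and 80.7 and 77.1 in OE-labelled libraries. Control and WT were close to each other, CypD KO was higher than both, and the OE-labelled libraries were 3 times CypD KO. *Ptgds*, which encodes the other, lipocalin-type synthase of prostaglandin D2, was at 273 and 263 TPM in WT, 258 and 246 in CypD KO, 566 and 595 in Control and 233 and 228 in OE-labelled libraries and thus highest in Control. *Aldh1a3*, which oxidizes retinaldehyde to retinoic acid, was at 15.9 and 15.6 TPM in WT, 13.8 and 12.5 in CypD KO, 15 and 11.4 in Control and 31.3 and 29.4 in OE-labelled libraries. The related *Aldh1a1* and *Aldh1a2* were at 0.60 TPM or less. *Mest* (ENSMUSG00000051855; chromosome 6, 30723546 to 30752058, plus strand), an imprinted gene expressed from the paternal allele, was at 60.9 and 57.7 TPM in WT, 9.51 and 8.71 in CypD KO, 21.7 and 21.6 in Control and 112 and 113 in OE-labelled libraries. All 4 groups were separate, and CypD KO was lowest. *Clvs1* and *Ttpa* encode lipid-binding proteins of the same structural family, the latter carrying vitamin E. *Clvs1* was at 53.1 and 57.7 TPM in WT, 12.7 and 13.2 in CypD KO, 32.3 and 38.7 in Control and 106 and 108 in OE-labelled libraries. *Ttpa* reached 5.15 and 5.58 TPM against 1.17 to 1.87 TPM elsewhere. *Mest* and *Clvs1* overlap *Copg2* and *Asph* on the opposite strand, which were at 44.6 to 62.5 TPM and 37.5 to 57.3 TPM.

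The other 9 members had mixed roles. *Kank4*, an adaptor that links the cytoskeleton to adhesion sites, was measured at 21.8 and 21.6 TPM in WT, 3.72 and 3.7 in CypD KO, 18.3 and 19.6 in Control and 38.7 and 37.5 in OE-labelled libraries, with CypD KO lowest. *Sytl4*, granuphilin, an effector of RAB27 in secretory granules, was at 0.63 and 0.34 TPM in WT, 2.41 and 2.34 in CypD KO, 0.34 and 0.21 in Control and 4.39 and 5.72 in OE-labelled libraries. CypD KO was second, and WT and Control were below 1 TPM. *Map7d2*, a microtubule-associated protein, reached 6.8 and 7.35 TPM and was lowest in CypD KO, at 1.54 and 1.31 TPM. *Ttc28*, a tetratricopeptide repeat protein, reached 12.6 and 11.4 TPM, and *Scfd2*, a protein of the Sec1 family of membrane traffic, 29.7 and 29.1 TPM. *Krt87*, a hair keratin, reached 3.49 and 4.17 TPM, and *Arxes1* 3.14 and 3.48 TPM. Both belong to families of similar genes among which reads may be split, so these low values are uncertain. *Arxes2*, the close copy of *Arxes1*, was at 0.41 and 0.28 TPM in WT, 0.26 and 0.61 in CypD KO, 0 and 0 in Control and 0.75 and 0.81 in OE-labelled libraries. The other hair keratins looked up, *Krt81*, *Krt83* and *Krt86*, were at 0.05 TPM or less. *Gfod1* reached 7.2 and 7.04 TPM and *Nrep* 7.05 and 5.13 TPM.

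Differences among WT, CypD KO and Control were tested for the members, because the rule set the same ceiling on these 6 libraries and no order between them. That ceiling limited how large a difference could be. It also made a gene raised in any of these groups less likely to be chosen, so counts by direction can reflect the rule. The shares of all genes tested are given beside them for scale only. All 8 libraries were fitted together with limma on log2(TPM + 1) for 13526 genes that reached 1 TPM in 2 or more libraries, and p-values were adjusted over these genes. All 54 members passed this filter, but *Pde9a* and *Krt87* did so only through the OE-labelled libraries. Without this pair, the counts below were the same over 52 members, except that 16 in place of 17 were lower in CypD KO than in Control. The fold changes below are on the log2(TPM + 1) scale, which understates changes of low genes.

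Between Control and WT, 0 of the 54 members were higher in Control and 20 were lower at an adjusted p under 0.05, against 12.1% of all genes tested for each direction. Of the members, 1 was higher at an unadjusted p under 0.05. The median log2 fold change of the members was -0.27, and that of all genes tested 0.01. On the log2(TPM + 1) scale, *Slc7a11* fell most, with a log2 fold change of -2.01 (SE 0.1, limma adjusted p of 5.15e-05), followed by *Mest* with -1.41 (SE 0.06, limma adjusted p of 2.53e-05). *Etv5* had a log2 fold change of -0.98 (SE 0.06, limma adjusted p of 0.000162), *Slc6a15* of -0.96 (SE 0.07, limma adjusted p of 0.000209) and *Fzd9* of -0.85 (SE 0.16, limma adjusted p of 0.00969). The order of *Mest* and *Fzd9* depended on the setting, since *Fzd9* reached -1.84 over the alternatives and *Mest* -1.45. Without WT replicate 1, *Fzd9* had a log2 fold change of -0.75 with a limma adjusted p of 0.0527. The lower genes included 6 of the 9 nuclear and RNA-binding factors, 5 of the 8 transport and metabolism genes and 5 of the 12 signaling genes, but 2 of the 7 matrix genes, 1 of the 9 adhesion genes and 1 of the 9 others. In this comparison, 29 of the 30 tested hypoxia genes were higher in Control.

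Between CypD KO and WT, 4 members were higher in CypD KO and 21 lower, against 30.1% and 18.4% of all genes tested. The median was -0.27 against 0.09 for all genes tested. On the log2(TPM + 1) scale, *Mest* was lowest relative to WT, with a log2 fold change of -2.58 (SE 0.06, limma adjusted p of 1.10e-06). It was followed by *Hapln1* with -2.51 (SE 0.08, limma adjusted p of 3.13e-06) and *Kank4* with -2.27 (SE 0.07, limma adjusted p of 1.85e-06). The order of *Mest* and *Hapln1* depended on the setting, since *Hapln1* reached -3.97 over the alternatives and *Mest* -2.86. In TPM, the mean of *Hapln1* was 6.6 in WT and 0.33 in CypD KO, and that of *Mest* 59.3 and 9.11. *Clvs1* had a log2 fold change of -2.02 (SE 0.09, limma adjusted p of 8.46e-06) and *Lmo1* of -1.92 (SE 0.11, limma adjusted p of 2.85e-05). The 4 that rose were *Hpgds*, at 1.41 (SE 0.11, limma adjusted p of 7.81e-05), *Sytl4*, at 1.19 (SE 0.18, limma adjusted p of 0.00182), *Etv5*, at 0.48 (SE 0.06, limma adjusted p of 0.000848), and *Adamts5*, at 0.41 (SE 0.13, limma adjusted p of 0.038). Of the 30 tested hypoxia genes, 27 were higher in CypD KO than in WT and 2 were lower.

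Both comparisons used the same WT libraries, so their values are given side by side without a measure of likeness. *Hapln1* was -0.4 (SE 0.08, limma adjusted p of 0.0155) in Control and -2.51 in CypD KO relative to WT, *Kank4* -0.18 (SE 0.07, limma adjusted p of 0.0905) and -2.27, and *Slc7a11* -2.01 and 0.2 (SE 0.1, limma adjusted p of 0.13). *Etv5* was lower than WT in Control and higher in CypD KO. *Lrp8* was -0.75 (SE 0.05, limma adjusted p of 0.000259) in Control and 0.05 (SE 0.05, limma adjusted p of 0.499) in CypD KO, and *Klf15* -0.36 (SE 0.07, limma adjusted p of 0.0147) and -1.66 (SE 0.07, limma adjusted p of 9.49e-06). The members thus did not share 1 order of the other 3 groups.

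**Figure D4:**
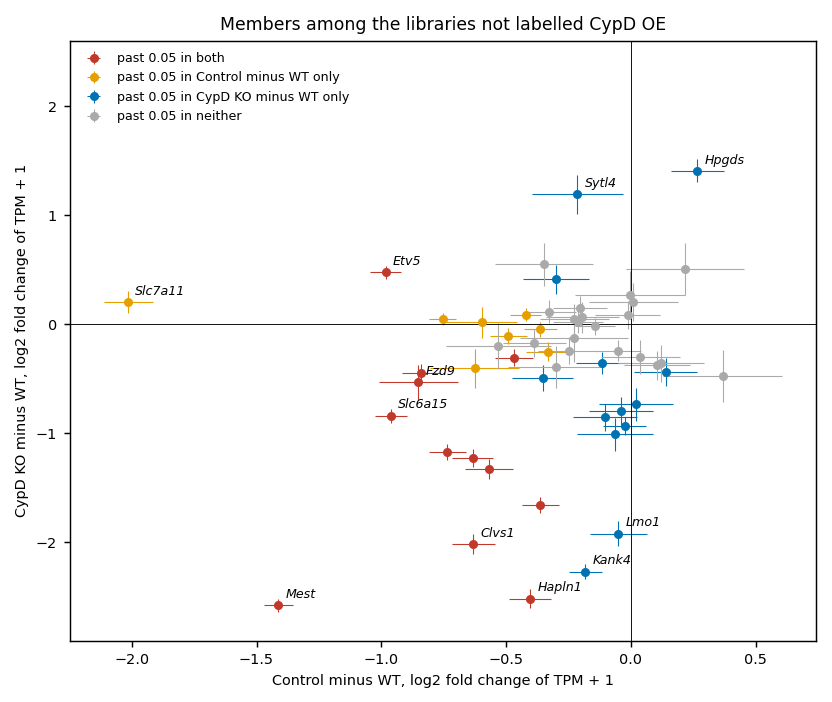
Log2 fold changes of TPM + 1 for the 54 members in Control minus WT (horizontal axis) and CypD KO minus WT (vertical axis), with standard errors from limma as bars and colours for an adjusted p under 0.05. *Slc7a11* lies furthest left at -2.01, *Mest* lowest at -2.58 and *Hpgds* highest at 1.41, and both axes share the WT libraries.

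CypD KO and Control differ in genotype, vector and oxygen, which cannot be told apart. Of the members, 14 were higher and 17 lower in CypD KO than in Control, against 27.4% and 16.5% of all genes tested. The median was 0.11 against 0.07 for all genes. On the log2(TPM + 1) scale, *Slc7a11* was furthest above Control in CypD KO, with a log2 fold change of 2.22 (SE 0.1, limma adjusted p of 1.04e-05), and *Etv5* followed with 1.46 (SE 0.06, limma adjusted p of 9.18e-06). *Hapln1* was furthest below on this scale, with -2.11 (SE 0.08, limma adjusted p of 6.95e-06), and *Kank4* followed with -2.08 (SE 0.07, limma adjusted p of 2.79e-06). *Lmo1*, at -1.87 (SE 0.11, limma adjusted p of 3.78e-05), and *Clvs1*, at -1.38 (SE 0.09, limma adjusted p of 4.50e-05), were also lower in CypD KO.

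Relative to Control, the members in the OE-labelled libraries had a median log2 fold change of 1.44, from 0.68 (*Negr1*) to 4.21 (*Hapln1*), and relative to WT a median of 1.10. These values follow from the choice of members and were not tested. Over all genes tested, the share higher in the OE-labelled libraries than in Control was 19% and the share lower was 18.3%, and nothing about the members is read from that share.

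The other genes of the pathways that hold a member were counted in the same comparison with Control, from lists that had been compiled with earlier results known. These counts leave out WT and CypD KO, so a gene counted as higher or lower may be near its WT level. *Slc7a5* of the ATF4 list, for example, had means of 80.6 TPM in WT, 56.7 in Control and 83.6 in the OE-labelled libraries. Of 22 tested NRF2 targets other than *Slc7a11*, 11 were higher and 5 were lower, with a median log2 fold change of 0.22 where that of all genes was 0.002. *Srxn1*, which repairs peroxiredoxins, had a log2 fold change of 1.17 (SE 0.05, limma adjusted p of 1.20e-05), *Txnrd1*, thioredoxin reductase, of 1.05 (SE 0.03, limma adjusted p of 2.02e-06), and *Gsr*, glutathione reductase, of 1.1 (SE 0.06, limma adjusted p of 2.93e-05). In the other direction, *Hmox1*, heme oxygenase, had a log2 fold change of -0.83 (SE 0.05, limma adjusted p of 3.83e-05) and *Gstp1*, a glutathione transferase, of -0.83 (SE 0.03, limma adjusted p of 1.06e-05), so that the list was divided.

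Of 23 tested ATF4 targets other than *Slc7a11*, 11 were higher and 2 were lower, with a median of 0.40. *Asns*, asparagine synthetase, had a log2 fold change of 1.3 (SE 0.05, limma adjusted p of 8.26e-06), *Cth*, which makes cysteine from cystathionine, of 1.15 (SE 0.1, limma adjusted p of 0.00026), and *Mthfd2*, of mitochondrial folate metabolism, of 1.11 (SE 0.04, limma adjusted p of 6.26e-06). *Ddit4*, with -2.67 (SE 0.09, limma adjusted p of 4.67e-06), and *Ddit3*, with -0.53 (SE 0.1, limma adjusted p of 0.00534), were the 2 lower genes, and *Ddit4* is also in the hypoxia list. *Atf4* itself was at -0.03 (SE 0.04, limma adjusted p of 0.602).

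Among 15 tested growth factor and receptor genes other than *Erbb3*, 7 were higher and 2 were lower, with a median of 0.24. *Fgfr3*, an FGF receptor, had a log2 fold change of 1.56 (SE 0.29, limma adjusted p of 0.00625), whereas *Met*, the HGF receptor, had -1.5 (SE 0.05, limma adjusted p of 3.27e-06). Other lists that held a member were counted in the same way: 7 of 25 axon guidance genes other than *Sema6a* were higher and 8 lower, 2 of 10 imprinted genes other than *Mest* were higher and 2 lower, and 2 of 14 glutathione transferase and retinoid genes other than *Aldh1a3* were higher and 5 lower. Of the 24 lists without a member, 14 had more genes lower than higher, 7 had more genes higher than lower and 3 had as many of each. They ran from hypoxia, given above, and the unfolded protein response, with 0 of 22 tested genes higher and 21 lower, to targets of YAP and TEAD factors, with 9 of 15 higher and 0 lower. Glycolysis, with 2 of 23 higher and 18 lower, and melanocyte and pigment genes, with 2 of 21 higher and 15 lower, were lower for the most part. TGF-beta and BMP genes, with 9 of 19 higher and 4 lower, and p53 targets, with 7 of 20 higher and 2 lower, were more often higher than lower.

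The members lay on all autosomes but chromosome 12, and on the X chromosome. Chromosome 6 held 7 of them (12.96%, against 5.25% of tested genes) and the X chromosome 6 (11.1%, against 3.25%). Chromosome 4 also held 6 (11.1%, against 6.16%) and chromosome 7 held 5 (9.26%, against 7.28%). No pair of members lay within 500 kb of each other. Chromosomes differed as wholes between the OE-labelled libraries and Control: the median log2 fold change of all tested genes was 0.25 on chromosome 13 and 0.21 on chromosome 6, which together held 11 members, but -0.18 on chromosome 15 and -0.17 on chromosome 12. Their part in the members' levels was not tested. With each chromosome's median removed from each library, an alternative chosen after seeing the data, the rule gave 51 genes, 46 of them members, and *Foxp2*, *Gfod1*, *Klf15*, *Mest*, *Nrep*, *Rgs7bp*, *Slc6a15* and *Tcf7l1* were no longer chosen.

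Around the members, 374 other tested genes lay within 500 kb, of which 113 (30.2%) were higher and 42 (11.2%) were lower in the OE-labelled libraries than in Control, with a median log2 fold change of 0.11. With chromosome medians removed, these shares were 24.3% and 13.4%, where those of all genes tested were 17.4% and 17.8%. Next to *Klf15*, *Aldh1l1* had means of 10.8 TPM in WT, 10.9 in CypD KO, 5.02 in Control and 11.1 in the OE-labelled libraries. For *Aldh1l1*, only Control was thus low. *Cfap100*, which was just outside the rule, had means of 3.96 TPM in WT, 3.675 in CypD KO, 3.59 in Control and 7.35 in the OE-labelled libraries. Near *Mest*, the largest log2 fold change of a neighbour was 0.64, that of *Klhdc10*. Next to *Hpgds*, *Smarcad1* had a log2 fold change of 0.35 and the predicted gene *Gm17147*, which overlaps *Hpgds* on the opposite strand, one of 1.73.

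**Figure D5:**
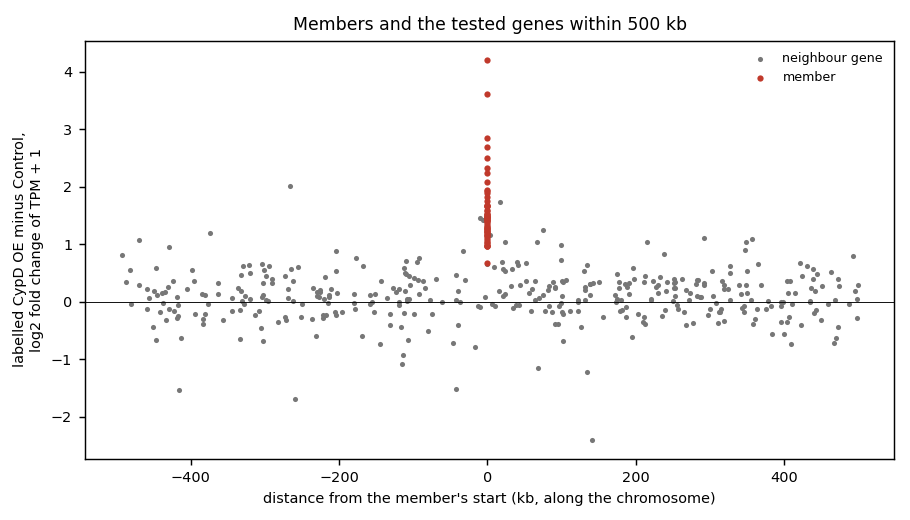
Log2 fold change of TPM + 1 in the OE-labelled libraries over Control for the 54 members (red, at distance 0) and for other tested genes (grey) against distance in kb from the member's start. Most neighbours lie within 1 of zero, with a median of 0.11, while members range from 0.68 to 4.21 by choice.

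The members were longer than other genes, a property the rule did not use. Their median gene length, introns included, was 74.2 kb, where that of tested protein-coding genes was 26.8 kb, and *Ptprd* (2271 kb), *Cdh13* (1041 kb) and *Negr1* (755 kb) were the longest. Of 1520 tested genes over 100 kb that were not members, 24.8% were higher and 20.7% were lower in the OE-labelled libraries than in Control, and of 9722 shorter ones 20.3% and 20.4%. These values were not tested.

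Promoters were compared over the 250 bases before the start of each gene's canonical transcript in GENCODE, read from GRCm39, and other starts of the same gene were not considered. The ratio of observed to predicted CpG was at least 0.6 for 25 of the 54 members (46.3%), for 61.2% of 11296 tested protein-coding genes and for 38.8% of all 21627 protein-coding genes. The members' median of 0.572 likewise lay between those of tested genes (0.681) and of all genes (0.474). The pattern searched for AP-1 factors was TGANTCA, where N stands for any base. It was held on either strand by 5 members (9.26%), *Erbb3*, *Etv5*, *Lmo1*, *Mef2c* and *Mme*, and by 4.25% of tested genes and 6.19% of all genes. The core of the hypoxia response element, ACGTG, was held by 10 members (18.5%), 21.7% of tested genes and 17.03% of all genes, and the CCAAT box by 13 members (24.1%), 36.95% of tested genes and 36.5% of all genes. The core of the antioxidant response element, TGACNNNGC, which shares letters with the AP-1 motif, was held by 9 members (16.7%), 10.6% of tested genes and 9.67% of all genes, and that of *Slc7a11* was not among them. These are counts of letters with no test, and they say nothing about binding.

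The promoters of the member with the largest ratio and of 4 of the members with an AP-1 motif are printed to show these letters in place, 5′ to 3′ on the strand of the gene, from 250 bases before the start to the base before it, with the AP-1 motif in capitals. They lie in GRCm39 at chr13:89687665-89687914 on the plus strand for *Hapln1*, chr3:63203164-63203413 on the plus strand for *Mme*, chr10:128425537-128425786 on the minus strand for *Erbb3*, chr16:22258484-22258733 on the minus strand for *Etv5* and chr13:83672170-83672419 on the plus strand for *Mef2c*. The motif begins 113 bases before the start in *Mme*, 78 in *Erbb3*, 233 in *Etv5* and 234 in *Mef2c*, and *Hapln1* has none of the 14 motifs searched.
Hapln1: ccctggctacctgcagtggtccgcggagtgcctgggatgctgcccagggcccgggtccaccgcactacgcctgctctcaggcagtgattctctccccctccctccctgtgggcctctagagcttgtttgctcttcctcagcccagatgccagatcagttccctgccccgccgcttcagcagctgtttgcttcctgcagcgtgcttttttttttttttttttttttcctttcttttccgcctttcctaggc
Mme: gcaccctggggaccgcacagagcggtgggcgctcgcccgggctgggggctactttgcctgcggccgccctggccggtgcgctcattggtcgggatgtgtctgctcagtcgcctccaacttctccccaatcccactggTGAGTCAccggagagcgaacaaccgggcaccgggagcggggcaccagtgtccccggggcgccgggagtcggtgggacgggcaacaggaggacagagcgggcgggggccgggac
Erbb3: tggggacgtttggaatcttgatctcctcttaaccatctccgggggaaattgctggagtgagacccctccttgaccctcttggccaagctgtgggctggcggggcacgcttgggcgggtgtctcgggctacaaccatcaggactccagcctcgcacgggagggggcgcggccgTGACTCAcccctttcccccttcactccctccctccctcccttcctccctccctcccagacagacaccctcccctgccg
Etv5: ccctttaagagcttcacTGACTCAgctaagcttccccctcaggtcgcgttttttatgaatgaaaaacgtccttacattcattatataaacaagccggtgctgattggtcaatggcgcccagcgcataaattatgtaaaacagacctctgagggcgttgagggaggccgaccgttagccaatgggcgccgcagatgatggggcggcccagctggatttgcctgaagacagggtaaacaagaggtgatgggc
Mef2c: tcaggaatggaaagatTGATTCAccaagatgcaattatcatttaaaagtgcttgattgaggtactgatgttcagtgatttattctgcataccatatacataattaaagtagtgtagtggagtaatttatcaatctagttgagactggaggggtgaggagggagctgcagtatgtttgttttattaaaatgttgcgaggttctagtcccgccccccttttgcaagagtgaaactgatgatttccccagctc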

How the data were processed

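Total RNA of 8 B16F10 libraries (4 groups of 2) was sequenced in paired-end reads of 150 bases. According to the labels and the study's methods, the authors removed ribosomal RNA with the KAPA RNA HyperPrep kit with RiboErase, used Cutadapt 3.4, STAR 2.7.8a and RSEM 1.3.1 on GRCm39, and used DESeq2 1.26.0 for their own tests. The authors deposited TPM, scaled to the same sum in every library and given to 2 decimals, for 55414 genes. TPM holds no depth, so 1 fragment at 1000 effective bases was estimated from steps between low values, at 0.0815 to 0.0975 TPM; 83.2% to 85.9% of these values were within 0.15 of whole fragments, where even spread gives 30%. A rise of abundant transcripts lowers all other TPM values, and RSEM splits reads shared by several genes. Replicate correlations across genes, which are not independent, were 0.983 to 0.985.

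Groups came from the genotype labels, and 0 columns were left without a sample. The members and gene lists were chosen with earlier results of these data known. Tests used limma 3.58.1 in R 4.3.3 on log2(TPM + 1), with 1 mean per group over all 8 libraries, eBayes with trend, two-sided p-values, Benjamini-Hochberg adjustment over 13526 genes and a threshold of 0.05. With 2 libraries per group, an exact permutation test cannot pass that threshold. The test was tested on simulated data for Control minus WT: among 13526 genes, 200 were given a log2 change of 1, of which 84.5% were called, with 7 false calls. The simulated noise was independent between genes, and no other gene differed between groups. In the data, 12.1% of genes were called in each direction of this comparison, and the members were chosen by their values. The simulated rates therefore need not hold for the members. Of the identifiers, 98.8% matched GENCODE on GRCm39. Of the members, 10 overlap another tested gene, 7 of them on the opposite strand.

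Members named were the 12 with the largest ratio, the 8 with the highest mean in the libraries labelled CypD OE, the 5 largest called changes in Control minus WT and in CypD KO minus WT, those in a fixed list, and the 5 on either side of the threshold. The other members, their relatives and further genes of the lists were named after their values were seen. Alternatives were another ratio, minimum, pseudocount, filter, scaling or fit, a replicate block and leaving out each library, and chromosome medians, added after seeing the data. Protein sequences and read counts were not used here.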

Additional observations from a re-analysis of the deposited data

How the results depend on the processing

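The number of members, 54 as described, was 93 at a ratio of 1.5 and 25 at a ratio of 2. Leaving out 1 library at a time gave 56 to 82 members, with 82 without CypD OE replicate 2 and 72 without CypD OE replicate 1. Leaving out a library can only loosen the rule, so all 54 were bound to be chosen again and nothing is read from that. With median-of-ratios rescaling the number was 60, of which 51 were members, and with a minimum of 1 TPM or 5 TPM it was 75 or 46. In CypD KO minus WT, the 4 members called higher were 2 with a filter of 5 TPM, which left *Sytl4* and *Adamts5* out of the test. In Control minus WT, the members called higher numbered 0 to 1 when 1 library was left out, with 1 without WT replicate 1. The labels give replicates no shared culture, day or batch, and deviations of same-numbered libraries from their group means had correlations of -0.0295 to 0.108 across genes, so the replicate numbers were not taken to pair libraries; with a replicate block, 0 members were called higher and 19 lower in Control minus WT, 3 higher and 21 lower in CypD KO minus WT, and 14 higher and 17 lower in CypD KO minus Control. The pseudocount moved the members' median log2 fold change over Control from 1.44 to 1.695, and 0 of the 10 named differences among WT, CypD KO and Control changed sign. Of the 10 named differences among WT, CypD KO and Control, only that of *Fzd9* missed the threshold under an alternative, without WT replicate 1 (log2 fold change -0.75, limma adjusted p = 0.0527, range 0.00442 to 0.0527 over the settings that tested it, since a filter of 5 TPM left it out). Members near 3 TPM in the OE-labelled libraries rest there on approximately 107.8 to 110.4 fragments per 3000 bases. Their lower levels in the other libraries rest on fewer fragments, as for *Fzd9* at 0.28 and 0.34 TPM in Control.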
